A study of Mus musculus with 12 samples.

Results

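Of 10 genes that mark the primitive streak and the mesoderm that leaves it, 9 were measured in mouse embryonic stem cells. They were chosen by name: the T-box genes T, Eomes and Tbx6, the homeobox genes Mixl1, Gsc and Evx1, the basic helix-loop-helix genes Mesp1, Mesp2 and Msgn1, and Kdr, which encodes a receptor for vascular endothelial growth factor. Each of the 9 was read by 1 transcript cluster (the set of probes that reports 1 transcript unit) annotated to it alone, in a table of 23242 rows with 1 cluster per row. T was not analysed here, because the platform annotation in use assigned it no cluster. A cluster annotated to T2, another gene, together with Sft2d1 was not taken in its place.

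The cells were of the E14 mouse embryonic stem cell line and carried either a short hairpin RNA against LOXL2 (shLOXL2), a lysyl oxidase family member, or a control hairpin (shCT). Each kind was profiled after 1 day with RA, read as retinoic acid, and without RA at day 0, so that 4 groups of 3 arrays gave 12 arrays: shLOXL2 with RA, shLOXL2 without RA, shCT with RA and shCT without RA. All 4 groups carried a hairpin, and the only cells without RA were those of day 0, so an effect of RA cannot be told apart from that of a day of culture. The question named by the series is which genes depend on LOXL2 when RA drives differentiation.

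The primitive streak forms at the posterior side of the epiblast when Nodal, Wnt and bone morphogenetic protein signals act together. Cells that pass through it turn on T, Eomes and Mixl1, and then, by position, Gsc toward the anterior streak and Evx1 toward the posterior streak. Mesp1 and Mesp2 mark early mesoderm on leaving the streak, Tbx6 and Msgn1 mark presomitic mesoderm, and Kdr marks mesoderm that will give blood and vessels. Wnt signals reach several of these genes through TCF/LEF factors. Retinoic acid is known to turn embryonic stem cells mainly toward neural and extraembryonic endoderm fates.

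Windows of 250 bases before the start were held for 9 of the 10 members in the RefSeq promoter table (GRCm38.p6), T included and Mixl1 not. The letters CTTTGA, the core of the TCF/LEF site, were found on either strand in 3 of these 9 windows, those of Mesp1, Msgn1 and T, and in 13.8% of 32851 windows of all genes. The T-box half-site AGGTGT was found in 3 (Evx1, Mesp1 and T), against 11.8% of all windows, and the E-box CANNTG in 7, against 66.2%. In the windows of Evx1 and T the T-box match overlapped an E-box match. AGGTCA, the half-site of nuclear receptors such as those for retinoic acid, matched none of the 9 and 14.0% of all windows. The windows of Mesp1 and Msgn1 are shown because each held 2 TCF/LEF matches and both genes were measured while the level of the factor gene Lef1 fell (below). Both are on the minus strand and are written 5′ to 3′ toward the gene, with the TCF/LEF matches in capitals. A match describes these letters and is no evidence of binding, and a link between Lef1 and these genes was not tested.
Mesp1, chr7:79793591-79793840: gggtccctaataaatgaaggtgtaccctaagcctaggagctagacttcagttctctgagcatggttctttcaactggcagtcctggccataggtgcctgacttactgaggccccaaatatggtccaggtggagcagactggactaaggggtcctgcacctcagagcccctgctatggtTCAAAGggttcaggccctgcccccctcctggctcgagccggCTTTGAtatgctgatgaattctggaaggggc
Msgn1, chr12:11208949-11209198: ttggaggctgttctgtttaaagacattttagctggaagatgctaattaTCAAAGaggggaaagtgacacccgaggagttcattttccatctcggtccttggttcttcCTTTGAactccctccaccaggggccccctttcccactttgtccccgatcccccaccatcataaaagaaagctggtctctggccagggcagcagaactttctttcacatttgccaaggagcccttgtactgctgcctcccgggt
The matches of Mesp1 began 72 and 31 bases before the start, and those of Msgn1 143 and 202 bases before it. Mesp1 and Mesp2 are neighbours on chromosome 7 with no other protein-coding gene between them.

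Markers of embryonic stem cells were bright on all 12 arrays, and targets of retinoic acid rose with RA. The mean log2 signal of 9 embryonic stem cell markers lay between 8.69 and 8.86 in the 6 arrays with RA and between 9.13 and 9.30 in the 6 without. With RA, Stra8, a direct retinoic acid target, rose by 4.88 ± 0.15 on the log2 scale in shLOXL2 cells and by 5.29 ± 0.15 in shCT cells (SE, limma adjusted p at most 1.29e-09), and Cyp26a1, which encodes an enzyme that degrades retinoic acid, by 4.29 ± 0.16 and by 4.09 ± 0.16. The clusters that cover Loxl2 are shared with Gm21451. They stood at 60% and 65% of control in shLOXL2 cells on average of both RA states (limma adjusted p over all clusters 0.28 and 0.543). Without RA they stood at 67.5% and 89.6% of control, and with RA at 53.4% and 47.2%, past the threshold in neither state. The knockdown of the targeted gene thus did not pass the threshold, and each mention of shLOXL2 cells refers to the label. Array medians lay between 4.58 and 4.68 log2 units, and nothing says that the 3 arrays of a group stem from separate cultures, so the spread behind each p-value may be technical.

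Within groups, 1 axis of variation over all genes held 49.6% of the variance between arrays, against 10.7% for the next. The arrays highest on it were replicate 1 of shLOXL2 with RA, replicate 1 of shLOXL2 without RA, replicate 3 of shCT with RA and replicate 3 of shCT without RA. In each of the 4 groups, that array had the lowest mean signal of the 9 members, for example 4.83 against 5.08 and 5.05 in shLOXL2 with RA. It also had the lowest mean signal of 1097 olfactory receptor genes, which belong to the nose, for example 2.90 against 2.98 and 2.99 in the same group. The part of this axis in the members' values was not tested. Without these 4 arrays, a choice made after seeing the data, no member was called in any of the 7 comparisons.

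**Figure D1:**
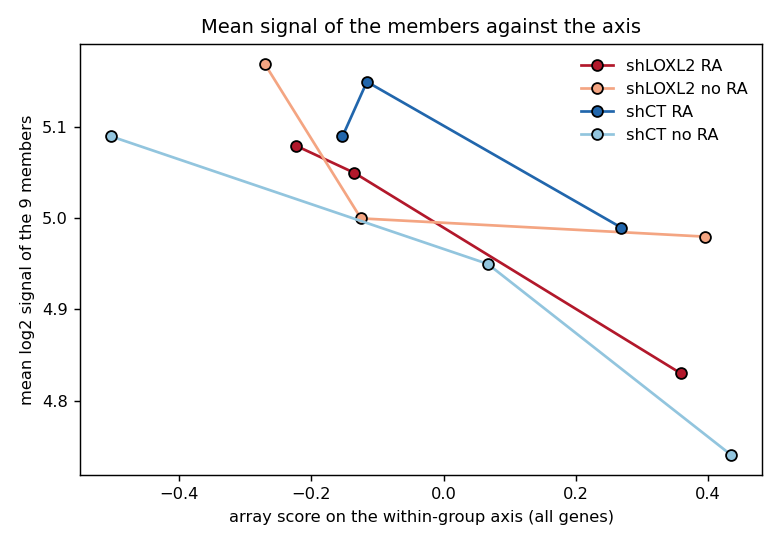
Mean log2 signal of the 9 measured members (vertical axis) against each array's score on the main axis of within-group variation over all genes (horizontal axis, no unit), 1 point per array and 1 colour per group, with lines joining the 3 arrays of a group. The right-hand array of every group is also its lowest, from 4.74 in shCT without RA to 4.99 in shCT with RA.

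After a day with RA, none of the 9 members had risen or fallen past the threshold in either kind of cell, a limma p adjusted over all 23242 rows under 0.05. In shLOXL2 cells 0 of 9 passed, where 3.35% of all rows passed. There 1 of the 9, Kdr, had an unadjusted p under 0.05, as did 3325 of 23242 rows. In shCT cells 0 of 9 passed, where 4.18% of all rows passed. None of the 9 had an unadjusted p under 0.05 there, where 3827 of 23242 rows did. With so few rows past the threshold, 0 of 9 is near the background. The median log2 difference of the members was 0.02 in shLOXL2 cells and 0.13 in shCT cells, beside -0.01 and 0 for all rows. On average of both constructs 0 of 9 passed, where 10.2% of all rows did. Eomes and Kdr had an unadjusted p under 0.05, as did 5151 of 23242 rows, a share close to that of the members. In these bulk samples, fewer cells that express a gene and less RNA per cell cannot be told apart.

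**Figure D2:**
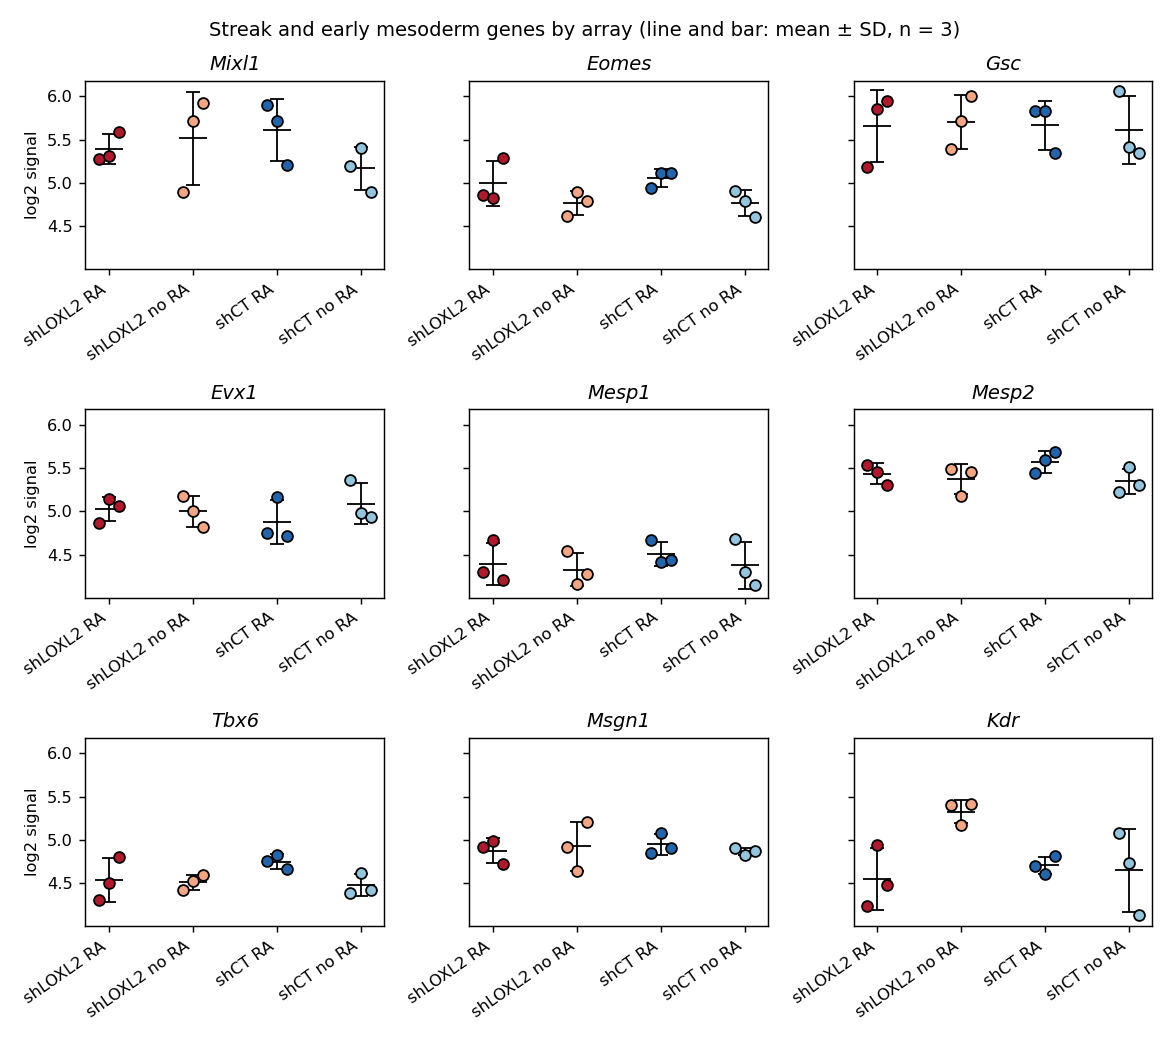
Log2 signal of the 9 measured members in every array, 1 panel per gene and 1 column per group, with shLOXL2 with RA at the left and shCT without RA at the right. Points are arrays, and lines with bars are the mean ± SD of 3 arrays. The columns overlap in most panels, and Kdr in shLOXL2 without RA stands above the columns on either side.

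Eomes, a T-box factor needed for cells to leave the streak as mesoderm and for definitive endoderm, came nearest to a common rise with RA. It had 4.86, 4.83 and 5.29 log2 units in shLOXL2 cells with RA, against 4.62, 4.90 and 4.79 without RA. In shCT cells it had 4.94, 5.11 and 5.12 with RA, against 4.91, 4.79 and 4.61 without. The arrays overlapped in shLOXL2 cells and did not in shCT cells, where every array with RA was higher. The log2 difference was 0.22 ± 0.15 (SE, adjusted p = 0.557) in shLOXL2 cells and 0.29 ± 0.15 (adjusted p = 0.365) in shCT cells. On average it was 0.26 ± 0.10, with a 95% interval from 0.03 to 0.48 and an adjusted p of 0.157. Eomes is also a gene of trophectoderm. Of 7 markers of that tissue, Eomes among them, none passed in either construct, and on average Cdx2 (0.63 ± 0.13) and the keratin gene Krt18 (0.44 ± 0.13) rose. The mean signal of these markers lay between 5.39 and 5.62 in shLOXL2 with RA and between 5.10 and 5.47 without, and between 5.46 and 5.60 in shCT with RA and 5.22 and 5.43 without. Their part in the Eomes values was not tested.

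Tbx6, which directs cells of the presomitic mesoderm away from a neural fate, showed its 3 shCT arrays with RA above those without. It had 4.75, 4.83 and 4.66 in shCT cells with RA, against 4.39, 4.62 and 4.42 without RA (difference 0.27 ± 0.14, adjusted p = 0.374). In shLOXL2 cells it had 4.30, 4.50 and 4.80 with RA, against 4.42, 4.52 and 4.59 without, and the arrays with RA spread over a wider range than those without. The difference there was 0.02 ± 0.14 (adjusted p = 0.969). Eomes and Tbx6 were the 2 of 9 members whose shCT groups did not overlap, where 21.2% of all rows did not, so the share of the members was close to that of all rows.

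Mixl1, a homeobox gene induced by Nodal and bone morphogenetic protein signals in the streak, varied widely between arrays of the same group. It had 5.28, 5.31 and 5.59 in shLOXL2 cells with RA, against 4.90, 5.72 and 5.92 without RA. In shCT cells it had 5.90, 5.72 and 5.21 with RA, against 5.20, 5.40 and 4.90 without. The groups overlapped within both constructs. The difference was -0.13 ± 0.25 (adjusted p = 0.886) in shLOXL2 cells and 0.45 ± 0.25 (adjusted p = 0.411) in shCT cells, with 95% intervals from -0.66 to 0.41 and from -0.09 to 0.98. The pooled SD within groups was 0.358 for Mixl1 and 0.354 for Gsc, against a median of 0.199 over all rows.

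Gsc, a homeobox repressor of the anterior streak and organizer, was level across the groups. It had 5.18, 5.85 and 5.95 in shLOXL2 cells with RA, against 5.39, 5.71 and 6.01 without, and 5.83, 5.83 and 5.34 in shCT cells with RA, against 6.06, 5.42 and 5.35 without. The 4 group means spanned 0.10 log2 units, less than the SD within any group. Gsc is shared with definitive endoderm, of which 2 of 7 markers rose with RA in each construct, where 3.35% of all rows passed in shLOXL2 and 4.18% in shCT cells. Foxa1, a forkhead pioneer factor, rose by 2.01 ± 0.21 in shLOXL2 and 2.07 ± 0.21 in shCT cells. Gata6, also a marker of primitive endoderm, rose by 1.99 ± 0.24 and 1.27 ± 0.24. The other markers did not pass. Sox17 stood at 0.29 ± 0.21 and 0.17 ± 0.21, and Foxa2 at -0.01 ± 0.20 and 0.13 ± 0.20. Cxcr4 stood at 0.12 ± 0.16 and 0.16 ± 0.16, Hhex at 0.05 ± 0.13 and 0.12 ± 0.13, and Cer1 at -0.14 ± 0.18 and -0.02 ± 0.18.

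Evx1, the homeobox gene of the posterior streak, had 4.87, 5.14 and 5.06 in shLOXL2 cells with RA, against 5.18, 5.01 and 4.82 without RA, and 4.75, 5.17 and 4.71 in shCT cells with RA, against 5.36, 4.98 and 4.93 without. The groups overlapped within both constructs. Its difference was 0.02 ± 0.16 in shLOXL2 cells and -0.21 ± 0.16 in shCT cells (adjusted p = 0.974 and 0.594).

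The 3 basic helix-loop-helix genes had differences of at most 0.22 with RA. Mesp1 differed with RA by 0.07 ± 0.17 in shLOXL2 cells and 0.13 ± 0.17 in shCT cells, and its neighbour Mesp2, which positions somite boundaries, by 0.06 ± 0.13 and 0.22 ± 0.13. Msgn1, a driver of presomitic differentiation under Wnt control, differed by -0.05 ± 0.15 and 0.08 ± 0.15. Adjusted p-values of the 3 genes lay between 0.456 and 0.933. The signal of Mesp1 ranged from 4.15 to 4.68 over the 12 arrays, that of Mesp2 from 5.18 to 5.69 and that of Msgn1 from 4.64 to 5.21, and the arrays of every pair of groups compared overlapped. The upper ends of the 95% intervals of Msgn1 were 0.27 in shLOXL2 cells and 0.40 in shCT cells. A rise in array signal beyond these sizes lay outside these unadjusted intervals. With no background level set, how far dim signal narrows a difference in RNA was not tested.

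Kdr had the largest difference with RA of the 9 members, in shLOXL2 cells. It had 4.23, 4.94 and 4.48 in shLOXL2 cells with RA, against 5.40, 5.17 and 5.41 without RA, and no array with RA reached an array without. In shCT cells it had 4.70, 4.61 and 4.81 with RA, against 5.08, 4.73 and 4.13 without, and the groups overlapped. The difference was -0.78 ± 0.22 (95% interval -1.25 to -0.30, 0.583-fold, adjusted p = 0.0804) in shLOXL2 cells and 0.06 ± 0.22 (-0.41 to 0.54, adjusted p = 0.93) in shCT cells. Kdr was the 1 of 9 members whose shLOXL2 groups did not overlap, where 19.6% of all rows did not.

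The call on Kdr depended on how the arrays were treated. Over all genes, arrays of the same number deviated together within shLOXL2 cells. Kdr itself did not follow this, since replicate 2 was the highest with RA and the lowest without. Treating each number within a construct as a random block gave an adjusted p of 0.028, with 7.5% of all rows past the threshold, while a fixed block, chosen after seeing the data, gave 0.0559. With single arrays left out, the difference in shLOXL2 cells ran from -0.97 to -0.62 and the adjusted p from 0.0258 to 0.278. Kdr passed without replicate 1 of shCT without RA (3.98% of all rows passed), replicate 3 of that group (3.6%) or replicate 2 of shLOXL2 with RA (2.25%). Without the 4 arrays highest on the within-group axis the difference in shLOXL2 cells was -0.58 (adjusted p = 0.15). The 4 groups, from the highest mean to the lowest, were shLOXL2 without RA (5.33 ± 0.135, SD, n = 3), shCT with RA (4.71 ± 0.0981), shCT without RA (4.64 ± 0.480) and shLOXL2 with RA (4.55 ± 0.360). The last 3 differed by less than the SD of the arrays of shCT without RA.

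Among 10 markers of vessels and blood, Kdr included, only the adhesion gene Pecam1 passed, with rises of 0.88 ± 0.16 in shLOXL2 and 0.92 ± 0.16 in shCT cells. Pecam1 is also expressed by embryonic stem cells. The other vascular genes did not pass: in shLOXL2 cells the difference was -0.25 ± 0.32 for the cadherin gene Cdh5, 0.09 ± 0.15 for the receptor gene Tek, 0.06 ± 0.14 for Flt1, a second receptor of the same growth factor family, and -0.04 ± 0.18 for Tie1. Among the blood genes, Gata1, an erythroid factor, stood at -0.49 ± 0.20 with its arrays with RA all below (adjusted p = 0.273), and Runx1, a factor of blood stem cells, at 0.36 ± 0.15 with them all above (adjusted p = 0.302). The mean signal of the 10 markers lay between 4.90 and 5.03 in shLOXL2 with RA and between 4.89 and 5.04 without. Over the 12 arrays, the rows most like Kdr, predicted and numbered symbols left out, were Brs3 (Pearson r = 0.888), Lrrn2 (0.870), Gucy2f (0.865), Rbbp8nl (0.850) and Sftpd (0.842). These are correlations across arrays of 4 groups, chosen as the highest of the table, and are given as a description.

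**Figure D3:**
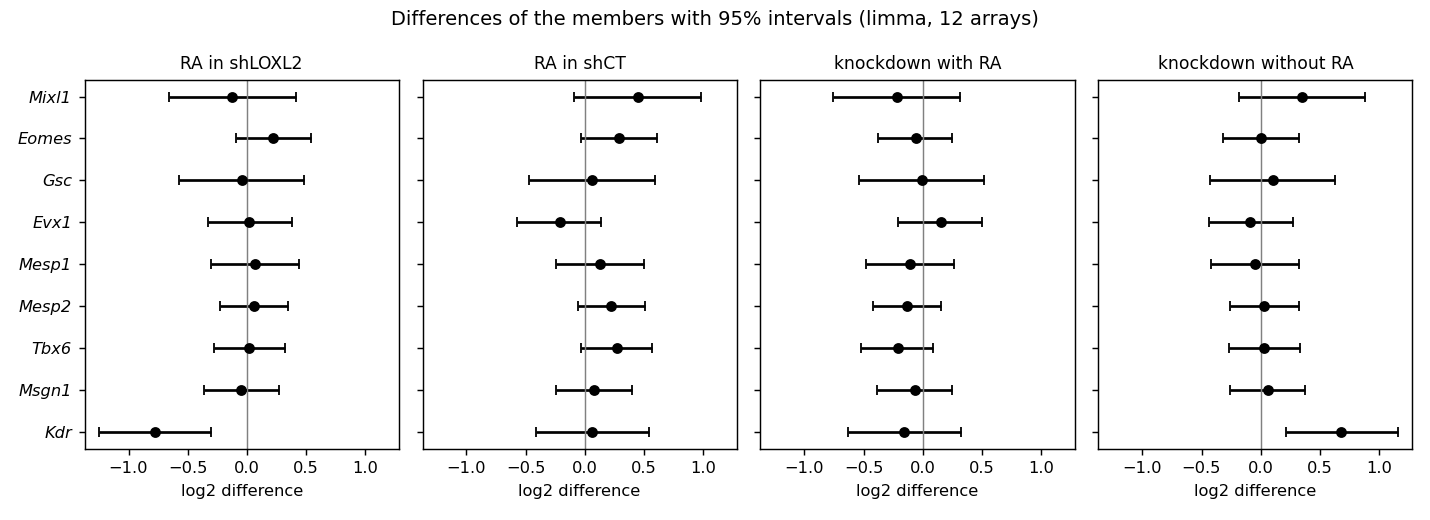
Log2 difference (horizontal axis) of each measured member in 4 comparisons, with 95% intervals of the limma fit over 12 arrays. RA panels give cells with RA minus cells without, and knockdown panels give shLOXL2 minus shCT. All intervals hold 0 except those of Kdr for RA in shLOXL2 (-1.25 to -0.30) and for knockdown without RA (0.21 to 1.16).

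LOXL2 knockdown changed no member past the threshold in either RA state, where 0% of all rows passed in each. With RA, the members' differences between shLOXL2 and shCT cells ran from -0.22 (Mixl1) to 0.15 (Evx1), none had an unadjusted p under 0.05, and 1139 of 23242 rows did. No member's arrays stood clear of the other group, where 12.5% of all rows did. Without RA the differences ran from -0.09 (Evx1) to 0.68 (Kdr), 1 of 9 had an unadjusted p under 0.05, and 1083 of all rows did. Averaged over both RA states, 0 of 9 passed, where 0.0559% of all rows did, and none had an unadjusted p under 0.05. The averages ran from -0.09 ± 0.10 for Tbx6 to 0.26 ± 0.16 for Kdr, with 95% intervals that all lay between -0.34 and 0.60.

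Kdr without RA had the largest of these differences. It had 5.40, 5.17 and 5.41 in shLOXL2 cells, against 5.08, 4.73 and 4.13 in shCT cells, a difference of 0.68 ± 0.22 (1.61-fold, adjusted p = 0.816). All 3 shLOXL2 arrays were above all 3 shCT arrays. Kdr was the 1 of 9 members whose groups did not overlap here, where 8.19% of all rows did not, in either direction. Without replicate 3 of shCT without RA, the lowest array, the difference was 0.43, and without replicate 1 it was 0.90. Without the 4 arrays highest on the within-group axis it was 0.39. With RA the difference was -0.16 ± 0.22 (adjusted p = 0.988).

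No other member had an unadjusted p under 0.05 for knockdown in either RA state. Mixl1 differed by 0.35 ± 0.25 without RA and by -0.22 ± 0.25 with RA. The value without RA was 0.66 without replicate 1 of shLOXL2 without RA and 0.15 without its replicate 3, and the value with RA ran from -0.42 to -0.08 with single arrays left out. Gsc differed by 0.10 ± 0.25 and -0.01 ± 0.25, and Eomes by 0.00 ± 0.15 and -0.06 ± 0.15. The presomitic genes Tbx6 and Msgn1 differed by 0.03 ± 0.14 and 0.06 ± 0.15 without RA and by -0.21 ± 0.14 and -0.07 ± 0.15 with RA. Mesp1 differed by -0.05 ± 0.17 and -0.11 ± 0.17, and Mesp2 by 0.03 ± 0.13 and -0.13 ± 0.13.

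The RA response of the members did not differ between the constructs past the threshold, where 0% of all rows passed and 675 had an unadjusted p under 0.05. The difference, RA in shLOXL2 minus RA in shCT, was -0.84 ± 0.31 for Kdr (95% interval -1.51 to -0.17), the 1 member with an unadjusted p under 0.05, and -0.34 without the 4 arrays highest on the within-group axis. It was -0.57 ± 0.35 for Mixl1, -0.25 ± 0.20 for Tbx6 and 0.23 ± 0.23 for Evx1. All adjusted p-values were 1. This comparison uses the same 12 arrays as those above, and 8 of 9 members had a value below 0, with a median of -0.12 beside 0.01 for all rows. The lean was not particular to the members. Of 16 presomitic and paraxial mesoderm genes 4 were above 0 (median -0.2), as were 2 of 8 neural progenitor markers (-0.17) and 2 of 8 fibroblast markers (-0.11). Of the lists compared here, only primitive endoderm markers had a median above 0 (0.15, with 8 of 9 above 0).

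Of 24 genes measured (25 listed) of the signals that induce the streak, 3 fell in shLOXL2 cells, where 3.35% of all rows passed, and 3 fell and 2 rose in shCT cells, where 4.18% did. Most of the 24 did not pass in either construct. Lef1, a transcription factor of the Wnt pathway, fell by 1.90 ± 0.22 in shLOXL2 and by 2.22 ± 0.22 in shCT cells. Bmp4, a growth factor needed for mesoderm, fell by 1.45 ± 0.30 and by 1.32 ± 0.30, and Fgf4, the fibroblast growth factor of stem cells, by 0.86 ± 0.14 and by 0.61 ± 0.14. Wnt3, the ligand that starts the streak, rose by 0.65 ± 0.13 in shCT cells, as did the receptor gene Fgfr1, by 0.48 ± 0.12. In shLOXL2 cells Wnt3 stood at 0.20 ± 0.13 and Fgfr1 at 0.23 ± 0.12. The difference between the constructs did not pass for either gene (adjusted p = 1). Nodal, the central streak ligand, stood at -0.01 ± 0.14 in shLOXL2 and 0.19 ± 0.14 in shCT cells, and Wnt3a at 0.28 ± 0.20 and 0.30 ± 0.20. The median of the 24 genes was 0.06 and 0.17, beside -0.01 and 0 for all rows.

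Of 11 inhibitors of these signals, 2 rose and 1 fell in shLOXL2 cells, and 2 rose in shCT cells, beside the same shares of all rows. Lefty1, which blocks Nodal, rose by 1.67 ± 0.25 in shLOXL2 and by 2.13 ± 0.25 in shCT cells, and Sfrp5, a secreted Wnt antagonist, by 1.20 ± 0.21 and by 1.24 ± 0.21. Sfrp1, of the same family, fell by 1.0 ± 0.21 in shLOXL2 cells and stood at -0.30 ± 0.21 in shCT cells. The difference between the constructs did not pass for Sfrp1. The median of the 11 was -0.09 and -0.02.

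Of 20 other genes of the streak and node, which count Nodal, Fgf8 and Wnt3a again, 2 rose and 1 fell in shLOXL2 cells, where 3.35% of all rows passed, and 3 rose and 1 fell in shCT cells, where 4.18% did. Cdx1, a caudal homeobox gene that retinoic acid and Wnt both induce, rose by 2.22 ± 0.16 in shLOXL2 and by 2.35 ± 0.16 in shCT cells, and Wls, the carrier that Wnt ligands need for secretion, by 1.36 ± 0.25 and by 1.37 ± 0.25. Fgf17 fell by 1.26 ± 0.21 and by 1.43 ± 0.21. Sp8 rose by 0.59 ± 0.14 in shCT cells and stood at 0.24 ± 0.14 in shLOXL2 cells, and the difference between the constructs did not pass. Fgf8, an early growth factor of the streak, did not pass, at -0.25 ± 0.19 and 0.24 ± 0.19.

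**Figure D4:**
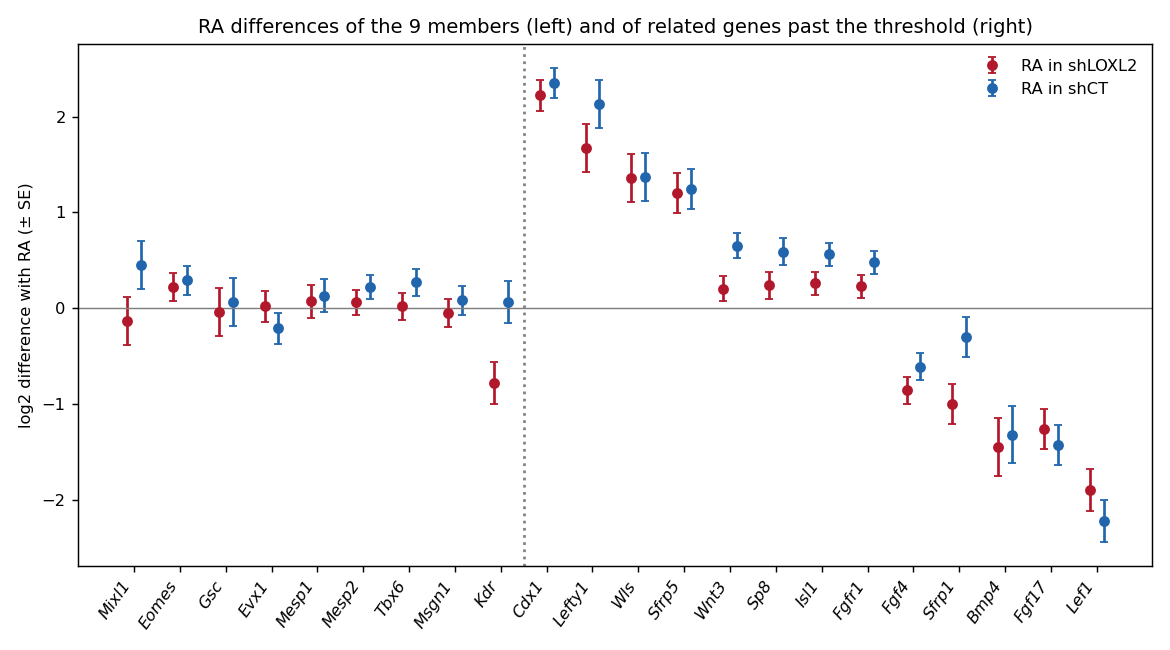
Log2 difference with RA ± SE (vertical axis) in shLOXL2 and shCT cells for the 9 measured members, left of the dotted line, and for 13 related genes past the threshold in at least 1 construct, right of it. The members lie between -0.78 and 0.45, while the related genes, which are shown because they passed, run from -2.22 for Lef1 to 2.35 for Cdx1.

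The lists of later mesoderm held no more than 1 call in either construct, where 3.35% of all rows passed in shLOXL2 and 4.18% in shCT cells. Of 16 genes of presomitic and paraxial mesoderm none passed with RA in either construct, and on average Meox1, a somite homeobox gene, rose by 0.48 ± 0.12. Of 20 genes of lateral, cardiac and blood mesoderm none passed in shLOXL2 cells, and Isl1, a LIM homeobox gene of cardiac progenitors, rose by 0.56 ± 0.12 in shCT cells. Its RA response did not differ between the constructs past the threshold. On average of both constructs, where 10.2% of all rows passed, 4 of the 20 did. Gata2 (0.71 ± 0.18), Pdgfra (0.94 ± 0.24) and Isl1 (0.41 ± 0.09) rose, and a cluster that Smarcd3 shares with Chpf2 fell by 0.53 ± 0.15. Pdgfra is also a marker of primitive endoderm, of which 3 of 9 genes rose on average.

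For LOXL2 knockdown, no gene of these 5 lists passed in either RA state. With RA, all 16 presomitic and paraxial genes had a value below 0, with a median of -0.22 beside 0.01 for all rows. Some other lists leaned the same way in this comparison. Of 9 members 1 had a value above 0 (median -0.11). So did 5 of 20 other streak and node genes (-0.13) and 1 of 8 fibroblast markers (-0.09). Among 8 neural progenitor markers 3 were above 0 (-0.12), and among 10 markers of vessels and blood 3 were (-0.08). Other lists leaned less or not at all. Of 24 streak signals 13 were above 0 (median 0.05), and of 11 inhibitors 5 were (0). Of 20 lateral, cardiac and blood genes 8 were above 0 (-0.06), and of 9 primitive endoderm markers 4 were (-0.02). Of 7 definitive endoderm markers 2 were above 0 (-0.02), of 7 trophectoderm markers 2 (-0.04) and of 9 embryonic stem cell markers 3 (-0.04). Without RA 8 of the 16 presomitic and paraxial genes had a value above 0, with a median of 0. With RA, the value was -0.44 ± 0.14 for Nodal and -0.47 ± 0.19 for Fgf8 (adjusted p = 0.977 for both). Pcsk6, of the same list of streak signals, went the other way, at 0.64 ± 0.14 with RA (adjusted p = 0.687) and 0.56 ± 0.14 without (adjusted p = 0.6). The RA and knockdown comparisons share the arrays of shCT with RA.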

How the data were processed

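Total RNA of E14 cells was extracted with Trizol and 100 ng per sample was labelled with an Affymetrix whole-transcript assay, per the labels' protocols. The authors deposited log2 signals per transcript cluster, from 0.567 to 13.8, 1 column per array. The submitters' processing notes name RMA, limma and R 3.1.1 without roles. No scanner files or detection calls were used, so no background level was set.

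Of 41345 clusters, 23521 had 1 gene, 1814 several and 16010 none. A gene took the brightest of its own clusters, and a gene without one took a shared cluster, which gave 23242 rows. Symbols were updated by gene identifier. One limma 3.58.1 fit (R 4.3.3, statmod 1.5.0) over 12 arrays had 1 mean per group, 7 contrasts and Benjamini-Hochberg adjustment over all rows, with a threshold of 0.05. It was tested on simulated data. Errors are SE unless named, intervals are 95% and not adjusted, and 3 arrays per group limit the precision.

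The members, lists and alternatives were chosen with earlier results of these data known. Named were all members, up to 4 genes per list and contrast past the threshold with the smallest p, some list genes that did not pass, and the 5 genes most like the member with the widest range of group means. Fgfr1, which fell outside this rule, and the list genes that did not pass were named after their values were seen. Same-numbered arrays with and without RA deviated together in shLOXL2 cells (correlations of deviations 0.56, 0.25 and 0.22) and less evenly in shCT cells (0.37, 0.04 and 0.63). Across constructs most were below 0. The numbers come from the sample titles, which state no pairing.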

Additional observations from a re-analysis of the deposited data

How the results depend on the processing

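Over 26 other ways of processing, 3 of them chosen after seeing the data, 1420 of 1542 values of single members kept their sign. The other 122 changed it, none was past the threshold, and the largest after the change was 0.25 in size. In the comparisons of knockdown with RA, knockdown on average, RA in shCT and the difference between RA responses, the count of members past the threshold stayed at 0 throughout. For RA in shLOXL2 it was 1, always Kdr, with the random replicate block within construct (7.5% of all rows passed), the within-group axis as a covariate (adjusted p = 0.0127, 10% of all rows), array weights (12.3%), and the gene table centred on its medians (0.0497, 3.4%), and 0 to 1 with single arrays left out. The count was 1 without replicate 1 of shCT without RA (3.98% of all rows), replicate 3 of that group (3.6%) or replicate 2 of shLOXL2 with RA (2.25%). For RA on average it was 1 (Kdr) with array weights (27.5% of all rows), and 0 to 1 with single arrays left out. Only leaving out replicate 3 of shCT without RA gave 1 (adjusted p = 0.0293, 11.6% of all rows). For knockdown without RA it was 1 (Kdr) with array weights (adjusted p = 0.0211), under which 14.0% of all rows passed. The cause was not tested. The replicate number as a block across all groups gave 0 members in each comparison, and changed no call. The filter on dim genes kept 3 members (Mixl1, Gsc and Mesp2), so Kdr has no value there. Centring the gene table moved the median of all rows to -0.098 for RA in shCT. With no background level set, how far dim signal limits the differences was not tested.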

Other observations

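Markers of primitive endoderm, an extraembryonic tissue, differed between arrays of the same shCT group. The mean signal of 9 such markers was 7.30, 6.76 and 6.40 log2 units in replicates 1, 2 and 3 of shCT with RA, against 7.16, 6.23 and 5.96 in those of shCT without RA. In shLOXL2 cells it lay between 6.70 and 6.78 with RA and between 6.06 and 6.18 without. Replicate 1 was the highest of both shCT groups in these markers. Without RA, it was also the highest of its group for Gsc (6.06), Evx1 (5.36), Mesp1 (4.68), Eomes (4.91), Msgn1 (4.91) and Kdr (5.08), and not for Mixl1, Mesp2 and Tbx6. With RA, replicate 1 of shCT was the highest for Mixl1 (5.90) and Mesp1 (4.67), and level with replicate 2 for Gsc (5.83). It was the lowest of that group for Eomes (4.94), Msgn1 (4.85) and Mesp2 (5.44), and in the middle for Evx1 (4.75), Tbx6 (4.75) and Kdr (4.70). The part of such cells in the members' values was not tested.

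Fibroblast markers, which a feeder layer would bring, did not pass in any comparison (0 of 8), where 0% to 10.2% of all rows passed. Their mean signal lay between 4.14 and 4.60 over the 12 arrays. Feeder cells at a like level in all groups would give no difference, so these comparisons cannot show whether such cells were present. Among 8 neural progenitor markers, none passed with RA in shLOXL2 cells, where 3.35% of all rows did, and Sox1 stood there at 0.57 ± 0.22 (adjusted p = 0.235). In shCT cells only Sox1 passed, with a rise of 1.06 ± 0.22, where 4.18% of all rows passed. The RA response of Sox1 did not differ between the constructs past the threshold. On average of both constructs, where 10.2% of all rows passed, Sox1 (0.82 ± 0.16) and Pax6 (0.45 ± 0.13) rose and the others did not pass.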
